A study of Mus musculus with 18 samples.

Results

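Toll-like receptors sense microbial molecules on macrophages, and their adaptors pass the signal on. The 10 genes described here were taken by name from the array's gene symbols: the receptors Tlr1, Tlr2, Tlr3, Tlr4, Tlr6, Tlr7 and Tlr9, the co-receptor Cd14, the adaptor Myd88 and the inhibitory kinase-like Irak3. They were 10 of 19454 genes on the array with 1 symbol, each was read by 1 row, and all 10 were bright enough to be among the 10258 genes tested. The study measured which mRNAs depend on tristetraprolin (TTP, encoded by Zfp36), a protein that binds AU-rich mRNAs and hastens their decay. It used 18 Affymetrix Mouse Gene ST 1.0 arrays of bone marrow-derived macrophages, which were grown from marrow cells of C57Bl/6 mice with M-CSF. The cells were TTP-/- (KO) at 0, 45 and 90 min and wild type (WT) at the same 3 times, with 3 arrays in each of the 6 groups. Every group, the 0 min groups included, had first received LPS for 3 h. The medium was then changed to one with actinomycin D, which stops transcription, and SB203580, which inhibits the p38 kinase, so the time without transcription was also the time with SB203580. No group was without LPS, so the arrays do not show how LPS changed these genes. Whether replicates were separate animals or cultures is not in the labels.

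As background, Toll-like receptors bind microbial lipids, proteins or nucleic acids, either at the cell surface or inside endosomes. Most of them signal through Myd88 to IRAK kinases and on to NF-kB and the p38 pathway, and LPS itself is recognised by Tlr4 with the help of Cd14. Macrophages tune this system after stimulation by changing the supply of receptors and by making inhibitors such as Irak3, also called IRAK-M.

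The authors' RMA intensities had array medians between 7.41 and 8.19, and arrays of a group correlated at 0.962 to 0.995. RMA sets all arrays to a shared scale, so a gene's change over time is read against the array's average mRNA, and a loss of RNA common to all genes cannot be seen. In such bulk samples, fewer cells of a type and less RNA per cell cannot be told apart. Numbers in the sample titles form 2 runs, a lower one that holds replicate 3 of every group and a higher one that holds replicates 1 and 2. These runs separated on the first principal component (29% of the variance), where the arrays of replicate 3 lay between 12 and 30.9 and those of replicates 1 and 2 between -23.1 and -5.76. All 7 macrophage markers on the array were above the signal limit of 3.03 (log2 intensity) that a gene had to reach in at least 1 group to be tested. Their summed level was 13.12 to 13.56 on KO arrays and 12.98 to 13.47 on WT arrays. Some single markers differed more between genotypes: means over 9 arrays were 4.42 in KO and 3.66 in WT for Mertk, 9.32 and 8.84 for Itgam, and 8.94 and 8.56 for Fcgr1. The means were also higher in KO for Adgre1 (10.72 and 10.50) and Csf1r (10.25 and 10.10). They were slightly lower in KO for Cd68 (10.85 and 10.87) and Lyz2 (12.02 and 12.04). No marker of B cells, T cells, neutrophils, natural killer cells, erythroid cells or mast cells reached the limit. The dendritic cell marker Zbtb46 (mean 3.23) and the stromal genes Col1a1, Col1a2 and Col3a1 (means of 4.07, 3.73 and 3.46) did. Zfp36 itself had a log2 intensity of 6.61 ± 0.31 in KO and 7.64 ± 0.45 in WT at 0 min (SD, n = 3 each). The part of the gene deleted in KO was not identified here, so this signal does not check the labels. For reference, Tnf, a known TTP target, had a decay difference of 3.79 ± 0.26 (SE) at 90 min (limma adjusted p = 3.76e-07). The decay difference subtracts the WT log2 change since 0 min from the KO log2 change. The p of Tnf was the lowest of all tested genes, so Tnf does not show how small a difference could pass. The decay difference of Zfp36 at 90 min was 1.91 ± 0.45 and did not pass (limma adjusted p = 0.758).

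Promoter windows of 250 bases before to 50 after a start site were given by RefSeq (GRCm38.p6) for 7 of the 10 genes, in 10 windows; Tlr4, Tlr7 and Cd14 were not matched. Both strands were searched for an NF-kB site core (GGGANNNNCC), an interferon-stimulated response element core (GAAANNGAAA) and an AP-1 site (TGANTCA). The NF-kB core was found in 1 or more windows of Irak3, Tlr2 and Tlr3, and in 20.7% of all 32851 promoters. The interferon-stimulated element core was found in windows of Myd88 and Tlr6, and in 3.44% of all promoters. The AP-1 site was found in the window of Tlr9, and in 7.81% of all promoters. For Irak3 and Tlr6 the window with a match is printed, because these genes passed the test with the replicate number or title-number run as a block. Cd14 also passed in that way but had no window. Tlr3 passed only in replicates 1 and 2 alone, and its window is not printed. The printed Irak3 window is chr10:120201548-120201847 (minus strand), with its NF-kB core match, read on the opposite strand, in capitals. The printed Tlr6 window is chr5:64959117-64959416 (minus strand), with 2 overlapping matches to the interferon-stimulated element core, both on the opposite strand, in capitals. Another window of Irak3 (chr10:120202081-120202380) and another of Tlr6 (chr5:64959999-64960298) held no match. These matches are letters in a window and were not measured as sites.
Irak3: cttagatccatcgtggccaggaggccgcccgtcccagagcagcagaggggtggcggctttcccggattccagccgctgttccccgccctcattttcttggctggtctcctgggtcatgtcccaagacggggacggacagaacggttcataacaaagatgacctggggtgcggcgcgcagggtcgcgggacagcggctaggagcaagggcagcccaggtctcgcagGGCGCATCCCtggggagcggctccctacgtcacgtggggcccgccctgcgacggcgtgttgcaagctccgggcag
Tlr6: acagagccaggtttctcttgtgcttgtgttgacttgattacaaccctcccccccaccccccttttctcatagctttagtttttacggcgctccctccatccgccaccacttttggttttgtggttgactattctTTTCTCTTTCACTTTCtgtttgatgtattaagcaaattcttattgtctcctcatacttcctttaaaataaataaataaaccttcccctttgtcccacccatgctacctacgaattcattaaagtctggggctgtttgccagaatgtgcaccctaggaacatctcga

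No member of the family passed the test in any of the 11 comparisons of limma's fit over all 18 arrays without a block, with Benjamini-Hochberg adjustment over all 10258 genes at 0.05. Over 90 min without transcription this held for KO, where 0.224% of all tested genes passed, and for WT, where 1.23% passed. With both genotypes averaged, 2.34% of all genes passed, and again no member did. At an unadjusted limma p below 0.05 there were 0 members in KO and 0 in WT, and 1, Tlr2, with both genotypes together. Over all tested genes 5.36% in KO, 9.43% in WT and 10% with both together were below that p. The median log2 change of the 10 members over 90 min was -0.06 in KO and -0.08 in WT. Over all tested genes it was 0.02 in KO and -0.02 in WT.

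**Figure D1:**
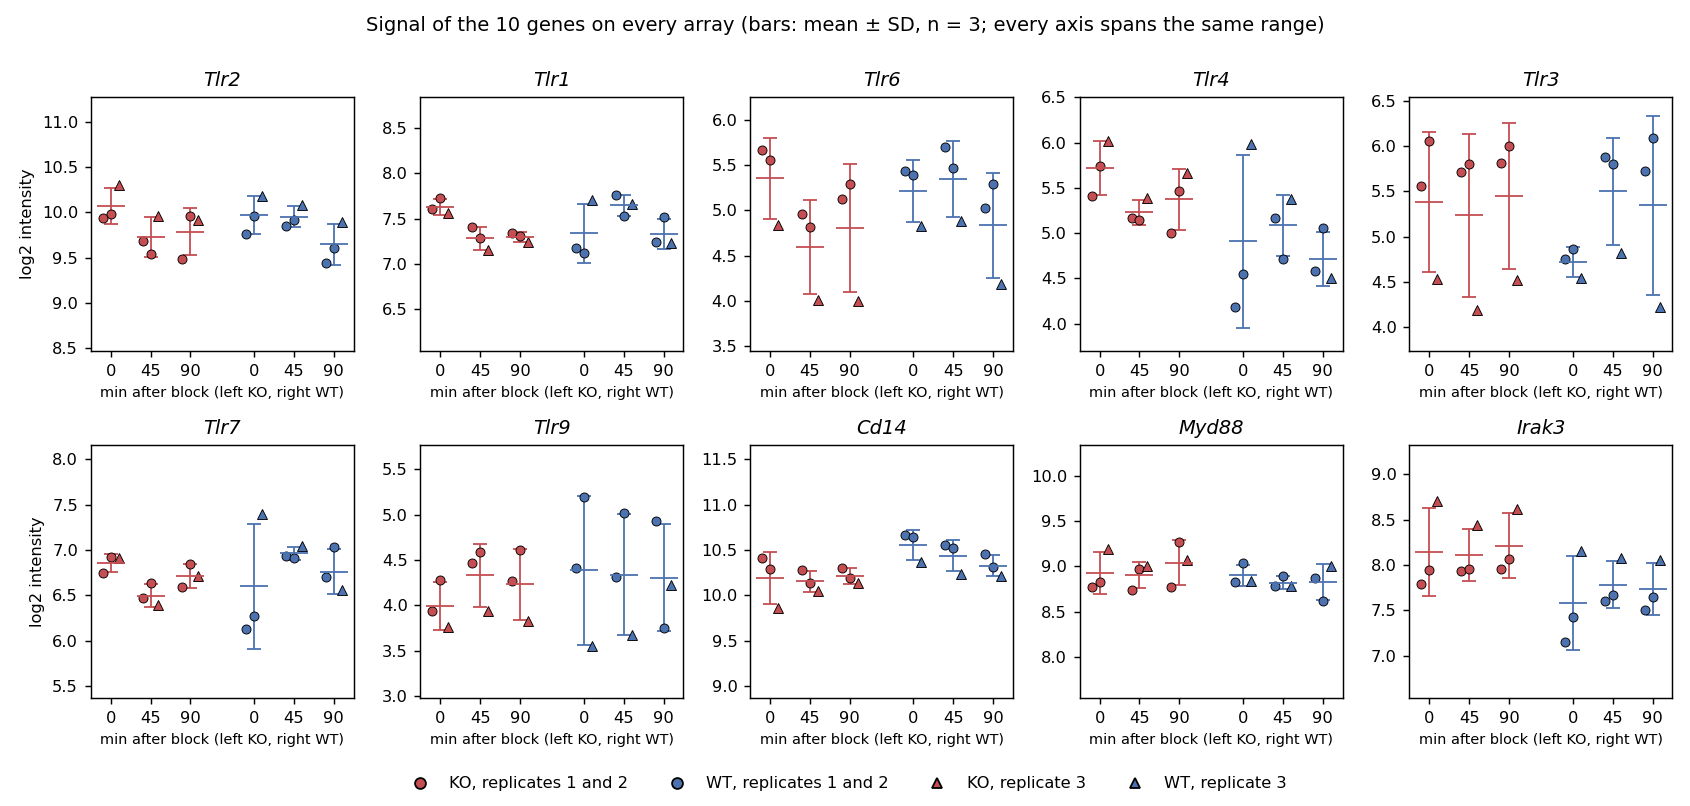
Signal (log2 intensity) of each of the 10 genes on every array, with KO to the left of WT and 0, 45 and 90 min after the transcription block in each; bars show mean ± SD of 3 arrays, and triangles mark replicate 3, which carries the lower title numbers. The 6 group means of a gene span from 0.22 (Myd88) to 1.00 (Tlr4), and replicate 3 lies apart for Tlr6, Tlr3 and Irak3.

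Among the receptors of the cell surface, Tlr2 recognises bacterial lipoproteins as a partner of Tlr1 or Tlr6. Its log2 intensity was 9.49, 9.96 and 9.92 in KO at 90 min against 9.93, 9.99 and 10.30 in KO at 0 min. In WT it was 9.44, 9.61 and 9.89 at 90 min against 9.76, 9.96 and 10.18 at 0 min. Every replicate was lower at 90 min in both genotypes, while the groups overlapped. The change was -0.29 ± 0.18 in KO and -0.32 ± 0.18 in WT (SE, n = 3 each, limma adjusted p of 1 and 0.653). With both genotypes together Tlr2 changed by -0.30 ± 0.13, with a 95% interval from -0.57 to -0.04 and a limma adjusted p of 0.373.

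Tlr1, the receptor for triacylated lipopeptides together with Tlr2, was at 7.34, 7.31 and 7.24 in KO at 90 min against 7.60, 7.73 and 7.56 in KO at 0 min. In WT it was at 7.24, 7.52 and 7.23 at 90 min against 7.18, 7.12 and 7.71 at 0 min. All KO values at 90 min lay below all those at 0 min, as they did for 6.22% of all tested genes, and the WT groups overlapped. The KO change was -0.33 ± 0.16 (limma adjusted p = 0.931) and the WT change was -0.00 ± 0.16 (limma adjusted p = 1). The decay difference at 90 min was -0.33 ± 0.22, with an interval from -0.80 to 0.15.

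Tlr4, the LPS receptor itself, changed by -0.34 ± 0.34 in KO and -0.19 ± 0.34 in WT over 90 min (limma adjusted p of 1 and 0.964). The WT replicates differed in direction: WT at 0 min read 4.19, 4.55 and 5.99, and WT at 90 min read 4.59, 5.06 and 4.51. Replicates 1 and 2 were higher at 90 min by 0.40 and 0.51, whereas replicate 3 was lower by 1.48. Without WT 0 min replicate 3 the WT change was 0.35 ± 0.25 (limma adjusted p = 0.544), so its direction turned. Tlr6, the receptor for diacylated lipopeptides, changed by -0.55 ± 0.37 in KO and -0.38 ± 0.37 in WT, and all 6 replicate differences were negative. With the title-number run as a block, Tlr6 passed over both genotypes, at -0.46 ± 0.10 with a limma adjusted p of 0.0111, where 4.62% of all genes passed. In this comparison the deviations of same-numbered arrays from their group means did not all correlate positively (lowest r of -0.287). Within replicates 1 and 2 alone, a fit of 12 arrays, the change was -0.33 ± 0.12 (adjusted p = 0.124).

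Of the receptors of the endosome, Tlr3, which binds double-stranded RNA, changed by 0.07 ± 0.53 in KO and 0.63 ± 0.53 in WT over 90 min. Its WT values were 5.73, 6.09 and 4.23 at 90 min against 4.75, 4.87 and 4.55 at 0 min. Replicates 1 and 2 were higher at 90 min and replicate 3 was lower. Tlr7, a receptor for single-stranded RNA, changed by -0.15 ± 0.24 in KO and 0.16 ± 0.24 in WT. Its WT values showed the same split, at 6.70, 7.03 and 6.56 at 90 min against 6.13, 6.27 and 7.39 at 0 min. Within replicates 1 and 2, WT at 90 min was higher for Tlr3 by 1.10 ± 0.19 (limma adjusted p = 0.00331) and for Tlr7 by 0.67 ± 0.17 (limma adjusted p = 0.0211). In that smaller fit 13.3% of all genes passed. Over both genotypes within replicates 1 and 2, Tlr3 was 0.60 ± 0.13 higher at 90 min (limma adjusted p = 0.02), where 5.25% of all genes passed. The single array of each group in the other run differed the other way in WT, by -0.32 for Tlr3 and -0.84 for Tlr7. Tlr9, the receptor for CpG DNA, lay close to the signal limit, with group means from 0.96 to 1.36 log2 units above it. Its changes were 0.24 ± 0.39 in KO and -0.08 ± 0.39 in WT, and its WT replicates ran from -1.44 to 0.68.

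The co-receptor and signalling genes had changes from -0.23 to 0.16 over 90 min. Cd14, which hands LPS to Tlr4, changed by 0.02 ± 0.16 in KO and -0.23 ± 0.16 in WT. Myd88, the adaptor shared by most of these receptors, changed by 0.11 ± 0.16 in KO and -0.07 ± 0.16 in WT. The 95% interval of Myd88 ran from -0.24 to 0.46 in KO and from -0.42 to 0.28 in WT. Irak3, which restrains signalling at the Myd88 complex, changed by 0.07 ± 0.28 in KO and 0.16 ± 0.28 in WT.

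**Figure D2:**
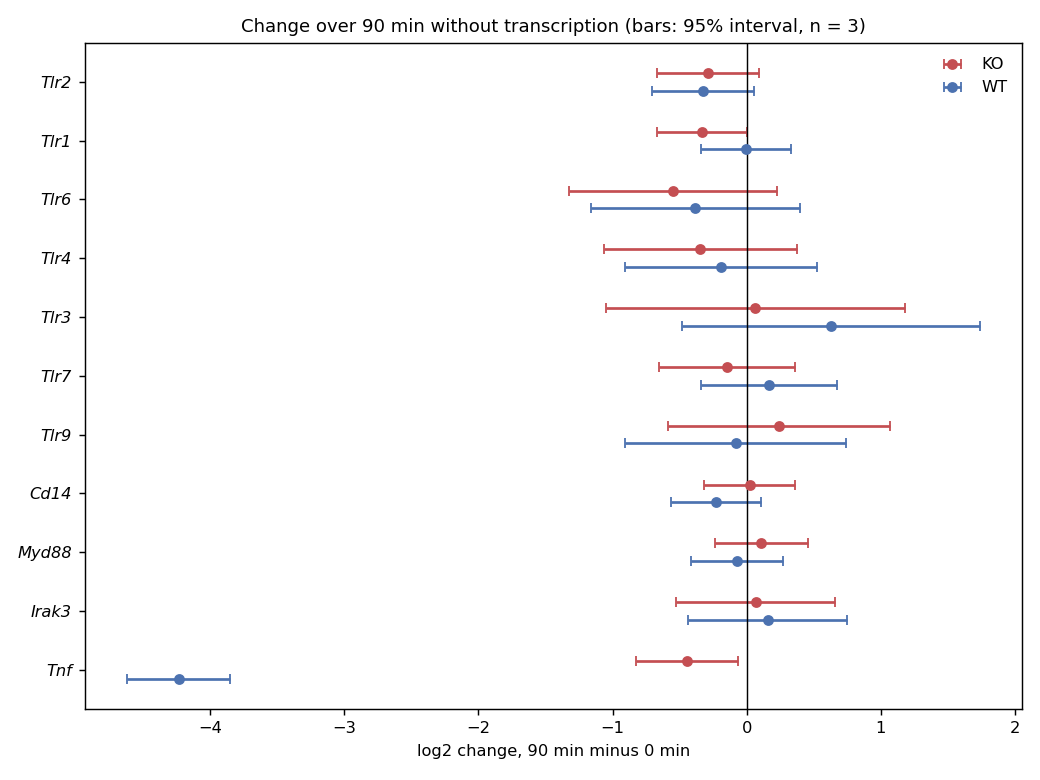
Log2 change from 0 to 90 min after the transcription block for each gene in KO and WT, with 95% intervals from the fit (n = 3 arrays per group) and Tnf as a gene that decayed. Every interval of the 10 genes includes 0, while Tnf in WT lies at -4.24.

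A straight line over the 3 times gave no member a 95% interval of the slope wholly below 0 in either genotype, so only lower limits of a half-life relative to the average mRNA can be given. In KO the limits were longest for Myd88, at 417 min, and Cd14, at 307 min; their WT limits were 226 and 166 min. Irak3 had limits of 183 min in KO and 224 min in WT. The shortest limits belonged to Tlr6, at 67.1 min in KO and 76.7 min in WT, and to Tlr4, at 85.6 min in KO and 100 min in WT. Tlr2 had limits of 135 min in KO and 128 min in WT. The remaining genes had limits from 89.3 min (Tlr3) to 166 min (Tlr9) in KO and from 104 min (Tlr9) to 251 min (Tlr7) in WT. These limits follow the spread of each gene as well as its slope, so a short limit is not a short half-life.

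At 45 min most members had a negative change in KO, though none passed in the fit over all arrays. In KO 9 of the 10 members had a negative change, as had 5355 of all 10258 genes, and the median was -0.25, against -0.01 over all genes. In WT 6 had a positive change, as had 4992 of all genes, and the median was 0.15, against -0.01 over all genes. Of these 6, Tlr1, Tlr4, Tlr7 and Irak3 changed by -0.05, -0.61, -0.35 and -0.08 in WT replicate 3. Tlr6 and Tlr3 changed by 0.05 and 0.28 in that replicate. No member passed in KO, where 0.0487% of all genes did, or in WT, where 0.127% did. At an unadjusted limma p below 0.05 there were 1 member in KO, Tlr1, and 0 in WT, against 5.26% and 3.89% of all genes. In KO 3 members, Tlr1, Tlr4 and Tlr7, were lower at 45 min without overlap, as were 7.89% of all genes. Tlr1 read 7.41, 7.28 and 7.15 in KO at 45 min against 7.60, 7.73 and 7.56 in KO at 0 min, a change of -0.35 ± 0.16 (limma adjusted p = 0.93). Tlr4 read 5.16, 5.14 and 5.39 in KO at 45 min against 5.41, 5.74 and 6.01 in KO at 0 min, a change of -0.49 ± 0.34 (limma adjusted p = 0.998). Tlr7 read 6.47, 6.63 and 6.39 in KO at 45 min against 6.74, 6.92 and 6.91 in KO at 0 min, a change of -0.36 ± 0.24 (limma adjusted p = 0.998).

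The 45 min result of Tlr6 in KO turned on how replicates were handled. Its log2 intensity was 4.97, 4.82 and 4.01 in KO at 45 min against 5.67, 5.55 and 4.84 in KO at 0 min. Each KO replicate was lower at 45 min, by 0.70 to 0.83, and the groups overlapped because replicate 3 read lower in both. In WT Tlr6 was at 5.70, 5.46 and 4.88 at 45 min against 5.44, 5.39 and 4.82 at 0 min, so each replicate was slightly higher. The KO change was -0.76 ± 0.37 in the fit without a block, with a limma adjusted p of 0.953. Same-numbered KO arrays deviated together, and with the replicate number as a block the change was -0.76 ± 0.15 with a limma adjusted p of 0.0441, where 0.253% of all genes passed. With the title-number run as a block the adjusted p was 0.0272, where 0.273% passed, and within replicates 1 and 2 alone it was 0.107 at -0.72 ± 0.17.

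The difference in Tlr6 between genotypes at 45 min had the same form. KO was below WT by 0.74, 0.65 and 0.87 in replicates 1, 2 and 3, or -0.75 ± 0.37 without a block (limma adjusted p = 1). With the replicate block it was -0.75 ± 0.15 with a limma adjusted p of 0.0414, where 0.283% of all genes passed. With the run as a block the adjusted p was 0.0309, where 0.273% passed, and within replicates 1 and 2 it was 0.16 at -0.69 ± 0.17. The decay difference of Tlr6 at 45 min was -0.89 ± 0.52, and it missed the threshold without a block (limma adjusted p = 1) and with the replicate block (adjusted p = 0.86). At 90 min Tlr6 averaged 4.81 ± 0.70 in KO and 4.84 ± 0.58 in WT (SD, n = 3 each), a difference of -0.03 ± 0.37 with an interval from -0.81 to 0.75. Tlr6 lies on chromosome 5 from 64953092 to 64970942 and its relative Tlr1 on the same chromosome from 64924680 to 64933600 (GRCm38.p6), with 19491 bases between them. Whether the array's probes tell these similar genes apart was not tested.

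Between genotypes no member passed at 45 min in the fit without a block, where 0.0195% of all genes did, and 1 member, Tlr1, had an unadjusted limma p below 0.05, as did 3.99% of all genes. Tlr1 and Tlr7 were lower in KO without overlap, as were 6.91% of all genes. Tlr1 read 7.41, 7.28 and 7.15 in KO and 7.76, 7.53 and 7.66 in WT, a difference of -0.37 ± 0.16 (limma adjusted p = 1). Tlr7 read 6.47, 6.63 and 6.39 in KO and 6.94, 6.91 and 7.05 in WT, a difference of -0.47 ± 0.24 (limma adjusted p = 1). For both genes every KO array was below every WT array.

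The test of the decay difference itself called no member at 90 min, where 0.0195% of all genes passed, or at 45 min, where 0.00975% passed. At an unadjusted limma p below 0.05 there were 0 members at 90 min and 2, Tlr1 and Tlr7, at 45 min, against 2.67% of all genes at 90 min and 1.82% at 45 min. The median decay difference of the members was -0.12 at 90 min, against 0.04 over all genes, and -0.49 at 45 min, against -0.00 over all genes. Both comparisons share the 0 min arrays. At 45 min Tlr1 had a decay difference of -0.66 ± 0.22, with an interval from -1.14 to -0.19, and Tlr7 one of -0.73 ± 0.34, with an interval from -1.45 to -0.01 (limma adjusted p of 1 for each). Both values include WT 0 min replicate 3, in which Tlr1 and Tlr7 read higher than in the other two WT arrays. Without that array the decay difference was -0.85 ± 0.19 for Tlr1 (limma adjusted p = 0.0501) and -1.13 ± 0.21 for Tlr7 (limma adjusted p = 0.0468), where 0.777% of all genes passed. That fit keeps replicate 3 in the other groups, so the title-number runs are not balanced in it.

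At 90 min the 95% intervals of the decay difference leave room for changes of differing size. The narrowest were those of Tlr1, from -0.80 to 0.15, and Cd14, from -0.23 to 0.73. For Myd88 the interval ran from -0.31 to 0.67 and for Tlr2 from -0.50 to 0.58. The widest was that of Tlr3, from -2.14 to 1.01. None of the 10 intervals reached the 3.79 measured for Tnf, the gene with the lowest p in this comparison. The highest upper end was 1.49, for Tlr9.

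**Figure D3:**
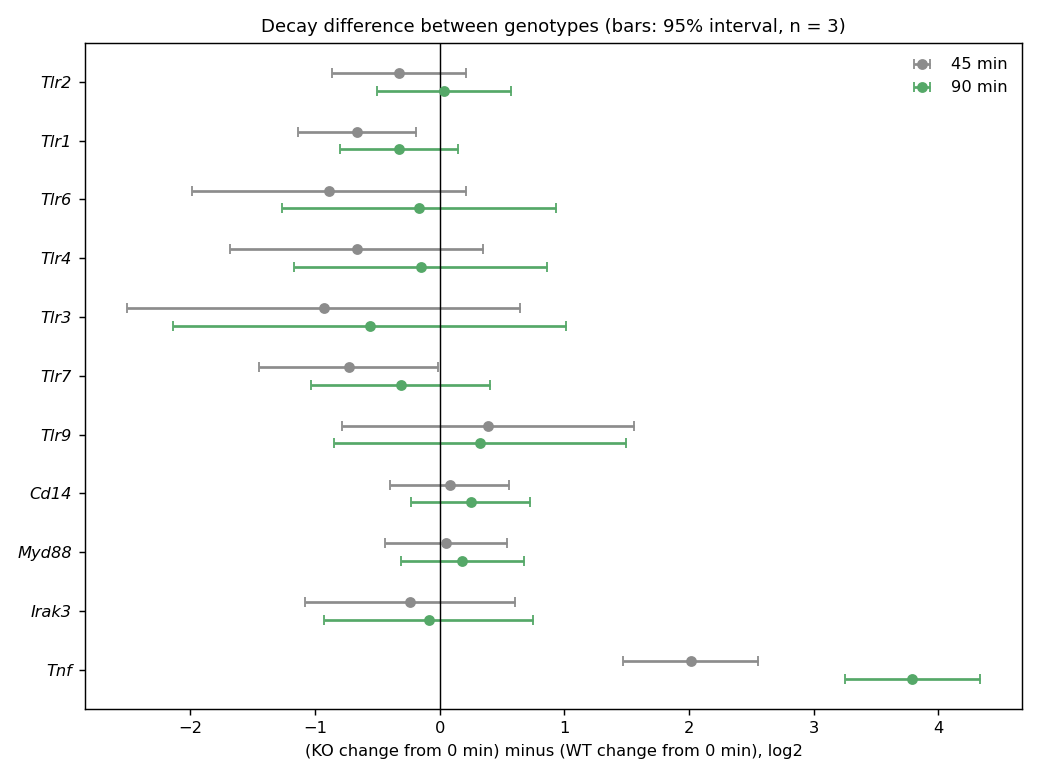
Decay difference (KO log2 change since 0 min, less the WT one) of each gene at 45 and 90 min, with 95% intervals (n = 3 arrays per group). The 45 min values of Tlr1 and Tlr7 have intervals below 0, no member passed the adjusted test, and Tnf lies at 3.79 at 90 min.

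Before the transcription block, after 3 h of LPS, no member and 0% of all genes passed between KO and WT, while 777 of all genes, or 7.57%, had an unadjusted limma p below 0.05. Of the members 2 had such a p, Tlr4 and Cd14. Tlr4 read 5.41, 5.74 and 6.01 in KO and 4.19, 4.55 and 5.99 in WT, a difference of 0.81 ± 0.34 (limma adjusted p = 0.655). KO was higher by 1.22 and 1.19 in replicates 1 and 2, and replicate 3 differed by 0.03. Cd14 read 10.42, 10.29 and 9.86 in KO and 10.66, 10.64 and 10.36 in WT, a difference of -0.37 ± 0.16 (limma adjusted p = 0.655). KO was lower in each of the 3 replicates, and the groups overlapped.

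Several of these values changed when WT 0 min replicate 3 was left out. For Tlr4, Tlr7 and Tlr1 that array read 5.99, 7.39 and 7.71, against 4.19 to 4.55, 6.13 to 6.27 and 7.12 to 7.18 in replicates 1 and 2. Without it 3 members were higher in KO at 0 min, where 7.91% of all genes passed: Tlr4 by 1.35 ± 0.25 (limma adjusted p = 0.00617), Tlr7 by 0.66 ± 0.16 (adjusted p = 0.0189) and Tlr1 by 0.48 ± 0.14 (adjusted p = 0.0499). Within replicates 1 and 2 of all groups, 4 members were higher in KO at 0 min, where 8.96% of all genes passed. These were Tlr4 at 1.20 ± 0.23, Tlr3 at 1.00 ± 0.19, Tlr7 at 0.63 ± 0.17 and Irak3 at 0.58 ± 0.16 (limma adjusted p from 0.00652 to 0.0383). With only WT 0 min replicate 3 left out, Tlr3 and Irak3 did not pass at 0 min (limma adjusted p of 0.656 and 0.0707). In WT at 45 min against 0 min, Tlr7 was higher by 0.76 ± 0.16 without that array (limma adjusted p = 0.0292), where 2.59% of all genes passed. Within replicates 1 and 2 Tlr3 was higher by 1.03 ± 0.19 and Tlr7 by 0.72 ± 0.17 (limma adjusted p of 0.0238 and 0.0424), where 2.45% passed. Leaving out only this array keeps replicate 3 in every group but WT at 0 min, so the runs are not balanced between the groups compared. Whether this array, the run or the cells set the difference was not tested.

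At 90 min no member passed between KO and WT, where 0.146% of all genes did, and 0 members had an unadjusted limma p below 0.05, against 5.78% of all genes. The members' median was 0.03, against 0.04 over all genes. Tlr4 differed by 0.66 ± 0.34 and Irak3 by 0.48 ± 0.28 (limma adjusted p of 0.877 and 0.9). Tlr4 read 5.01, 5.46 and 5.66 in KO and 4.59, 5.06 and 4.51 in WT. Its groups overlapped only in that KO replicate 1 lay below WT replicate 2.

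Of the macrophage markers, Mertk, Itgam, Fcgr1, Adgre1 and Csf1r had higher means in KO over the 3 times, and Lyz2 and Cd68 slightly lower ones. Whether these differences bear on those of Irak3, Cd14 and Tlr4 was not tested. Over all 3 times Irak3 was the member whose 9 pair differences had the narrowest range. It read 7.78, 7.95 and 8.70 in KO and 7.15, 7.43 and 8.16 in WT at 0 min. At 45 min it read 7.93, 7.96 and 8.44 in KO and 7.60, 7.66 and 8.08 in WT. At 90 min it read 7.95, 8.07 and 8.62 in KO and 7.51, 7.64 and 8.06 in WT. KO was higher in 9 of 9 pairs of the same replicate number and time, by 0.29 to 0.63, as was the case for 3.04% of all genes. Replicate 3 read higher than the other two in every group of both genotypes, by 0.62 over their mean on average, and the groups overlapped. The difference over all times was 0.46 ± 0.16, with an interval from 0.11 to 0.80 and a limma adjusted p of 0.233, where 1.33% of all genes passed and no member did. With the title-number run as a block it was 0.46 ± 0.08 with a limma adjusted p of 0.00183, where 4.82% passed. Within replicates 1 and 2 it was 0.44 ± 0.09 (limma adjusted p = 0.0137), where 5.68% passed, and the arrays of the other run differed by 0.49. Without WT 0 min replicate 3 it was 0.55 ± 0.15 (limma adjusted p = 0.0435), where 4.84% passed. In that fit KO at 0 min keeps replicate 3, which read higher, and WT does not, so genotype and run are not balanced. Over all times, deviations of same-numbered arrays from their group means correlated as weakly as 0.013, which bears on every blocked value of this comparison.

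Cd14 was the opposite case, with KO lower in 9 of 9 pairs, by 0.08 to 0.50, as was the case for 1.38% of all genes. At 45 min Cd14 read 10.28, 10.13 and 10.05 in KO and 10.56, 10.52 and 10.24 in WT. At 90 min it read 10.31, 10.19 and 10.14 in KO and 10.45, 10.31 and 10.22 in WT. The groups overlapped at both times, and the difference was widest at 0 min. Over all times it was -0.26 ± 0.09, with an interval from -0.45 to -0.06 and a limma adjusted p of 0.24. With the run as a block it was -0.26 ± 0.07 with a limma adjusted p of 0.0495, and within replicates 1 and 2 it was -0.26 ± 0.09 (adjusted p = 0.109).

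Tlr4 was higher in KO in 8 of 9 pairs, with a difference over all times of 0.54 ± 0.20, an interval from 0.12 to 0.95 and a limma adjusted p of 0.245. Within replicates 1 and 2 it was 0.61 ± 0.13 (limma adjusted p = 0.0148), and without WT 0 min replicate 3 it was 0.72 ± 0.13 (adjusted p = 0.00676). The latter fit keeps replicate 3 in KO but not in WT at 0 min. With the run as a block it was 0.54 ± 0.16 and missed the threshold (adjusted p = 0.0613). These 3 genes, Irak3 and Tlr4 higher and Cd14 lower in KO, were the members with an unadjusted limma p below 0.05 over all times, where 11.6% of all genes had one. The other 7 had KO minus WT differences from -0.21 (Tlr6) to 0.16 (Tlr3). Centring each array on 57 ribosomal protein genes shifted the median of all genes between genotypes by 0.16 over all times and by 0.11 to 0.23 at single times. On that scale Irak3 differed by 0.61 ± 0.17 and Tlr4 by 0.70 ± 0.18 (limma adjusted p of 0.0486 and 0.0411), where 4% of all genes passed. Cd14 then differed by -0.10 ± 0.10 (adjusted p = 0.541), against a median of 0.16 for all genes.

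**Figure D4:**
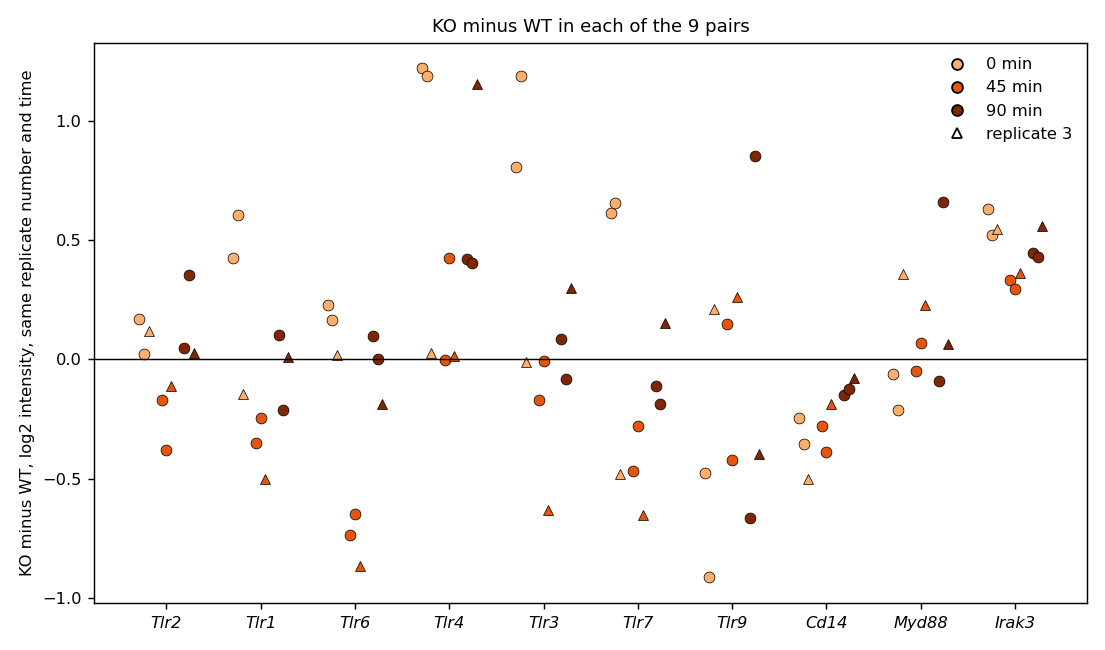
KO minus WT difference in log2 intensity for each gene in each of the 9 pairs of the same replicate number and time, with triangles for replicate 3. Irak3 lies above 0 and Cd14 below 0 in 9 of 9 pairs, and Tlr4 spreads from -0.00 to 1.22.

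Levels on the arrays also moved with the title-number run. In all 6 groups replicate 3 was below the mean of the other two for Tlr3 (by 1.20 on average), Tlr6 (by 0.85), Tlr9 (by 0.65) and Cd14 (by 0.25). In all 6 groups it was above it for Irak3 (by 0.62) and Tlr2 (by 0.30). For Tlr4 it was above in 5 of 6 groups and for Myd88 in 4 of 6.

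The other genes of the pathway, a list of co-receptors, chaperones, adaptors, kinases and inhibitors, had 31 members on the array, of which 28 were tested. None passed in KO or in WT alone at 90 min, where 5 in KO and 4 in WT had an unadjusted limma p below 0.05, against 5.36% and 9.43% of all genes. With both genotypes together 2 of the 28 passed, against 2.34% of all genes, and both were lower at 90 min. Ticam1, which encodes TRIF, the adaptor of Tlr3 and of the endosomal branch of Tlr4, fell by 0.79 ± 0.16 (limma adjusted p = 0.0111). Traf6, the ubiquitin ligase downstream of Myd88 and the IRAK kinases, fell by 0.64 ± 0.15 (limma adjusted p = 0.0345). Ticam1 kept 57.8% and Traf6 64.3% of its 0 min signal relative to the average mRNA. In single genotypes Ticam1 changed by -0.64 ± 0.23 in KO and -0.95 ± 0.23 in WT, and Traf6 by -0.63 ± 0.22 in KO and -0.65 ± 0.22 in WT. The groups of each genotype did not overlap for either gene. In KO 6.22% of all tested genes were lower at 90 min without overlap, and the WT share was not counted. Their decay differences were 0.31 ± 0.33 and 0.02 ± 0.31 (limma adjusted p of 0.999 each). The median change of the 28 genes over both genotypes was 0.02, and that of all tested genes was also 0.02.

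Likeness between genes was described as Pearson's r over the 18 arrays after the mean of each title-number run was taken off, so all points share arrays and scaling. Among the members r was highest for Tlr1 with Tlr7 (0.83) and Tlr3 with Tlr7 (0.79) and lowest for Cd14 with Irak3 (-0.86). Tlr2 and its partner Tlr6 had an r of 0.75. Over all genes, the pattern of Tlr4 was most like that of Sp3 and Tmem87b (0.94 each) and Nr3c1 (0.93). The pattern of Tlr3 was most like that of Mtpn, Herc6 and Ppip5k2 (0.95 each). The pattern of Tlr6 was most like that of C9orf72 (0.91), Oser1 and Nck1 (0.89 each).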

How the data were processed

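The authors deposited linear-scale intensities from 18 Affymetrix Mouse Gene ST 1.0 arrays, made with RMA in Affymetrix Expression Console, per the submitters' processing notes; no versions were stated. Deposited intensities were put on a log2 scale, without an offset. The platform annotation gave 1 symbol for 21039 of the 25138 rows, several for 1485 and none for 2614; symbols were updated through a RefSeq table (GRCm38.p6), and 84 rows kept an older one. The brightest row of each symbol was kept. A gene was tested if at least 1 group mean was not below the median row mean (log2 intensity of 3.03, intensity of 8.16), which left 10258 genes.

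All 18 arrays entered 1 limma fit of the 6 groups (limma 3.58.1, R 4.3.3) with no block and with Benjamini-Hochberg adjustment in each comparison at 0.05. Errors of changes are SE from this fit with n = 3 arrays per group, and intervals are at 95%. The number of arrays limits the precision, and p-values reflect only how these samples vary, which may be technical variation. No 2 arrays held identical values. Half-lives used a straight line over time in each genotype. The procedure was tested on simulated data.

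Deviations from the group means correlated above 0.1 for every pair of same-numbered arrays in KO at 90 min (lowest 0.413) and 45 min (0.321), WT at 45 min (0.333), the decay difference at 45 min (0.156) and KO against WT at 0, 45 and 90 min (0.156, 0.197 and 0.183). In these comparisons same-numbered arrays deviated together. Differently numbered arrays were not compared. Replicate 3 is also the whole lower title-number run, so this check cannot tell pairing by number from the run. The results given first are still from the fit without a block, and the blocked value stands beside them where it changes a call. Not all correlations of same-numbered arrays were above 0.1 in WT at 90 min, the decay difference at 90 min and both genotypes together (lowest -0.287 each), or in KO against WT over all times (0.013).

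The members, the lists of pathway genes and markers, and the tests were chosen with earlier results of these data known. All 10 members were named, Zfp36 and Tnf served as references, and pathway genes were named where they passed a comparison or had the 2 largest changes at 90 min in KO or WT. For the 3 members with the widest range of group means (Tlr4, Tlr3 and Tlr6), the 3 most similar genes were named. Alternatives were an offset, filters, quantile normalization, ribosomal centring, the mean of a symbol's rows, blocks, 1 title-number run alone and leaving out each array.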

Additional observations from a re-analysis of the deposited data

How the results depend on the processing

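The count of members past the threshold was 0 in each of the 11 comparisons and stayed 0 with an offset of 8, no filter, a stricter filter, quantile normalization and the mean of a symbol's rows. The stricter filter kept 5224 genes and left Tlr9 untested, so its count covers the other members only. Centring on ribosomal protein genes called 2 members over all times (Tlr4 and Irak3). The replicate block called 1 for KO at 45 min against 0 min (Tlr6), 1 for KO against WT at 45 min (Tlr6), 2 for KO against WT over all times (Cd14 and Irak3, with limma adjusted p of 0.0477 and 0.00194; Tlr4 missed at 0.0694) and 1 for both genotypes at 90 min (Tlr6, adjusted p of 0.0153); it changed no other member call. The title-number run as a block gave the same counts, 1, 1, 2 and 1, for the same genes, where 0.273%, 0.273%, 4.82% and 4.62% of all genes passed. With the replicate block 0.253% and 0.283% of all genes passed in the 2 comparisons at 45 min. Its shares over all times and for both genotypes at 90 min are not given here. Replicates 1 and 2 alone gave 2 for WT at 90 min and 2 for WT at 45 min (Tlr3 and Tlr7), 4 for KO against WT at 0 min, 2 over all times (Tlr4 and Irak3) and 1 for both genotypes at 90 min (Tlr3). Leaving out 1 array gave 0 to 1 members for WT at 45 min, 0 to 1 for the decay difference at 45 min, 0 to 3 for KO against WT at 0 min, 0 to 2 over all times and 0 to 0 elsewhere. Each count above 0 came without WT 0 min replicate 3, a fit in which only WT at 0 min lacks the lower title-number run. Slopes over the 3 times were refitted for each tested member and genotype in every alternative. Of these slopes 15 left 0 outside their interval, while 497 kept their sign and 26 changed it with intervals that included 0. The 15 were below 0 for Tlr1 and Tlr6 in KO and Tlr2 in either genotype and above 0 for Tlr3 and Tlr7 in WT. Tlr9 lies near the signal limit, and 3 arrays per group limit the precision of every interval.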
